A study of Homo sapiens with 4 samples.

Results

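The metallothionein genes and MTF1, the gene of the transcription factor that switches them on in response to metals, were compared between the breast cancer cell lines MDA-MB-231 and LM2. Members were chosen by gene symbol, as MT1A, MT1B, MT1E, MT1F, MT1G, MT1H, MT1M, MT1X, MT2A and MTF1, and all 10 were found once among the 57815 genes of the authors' table. MDA-MB-231 cells come from a triple-negative breast tumour, and the line named LM2 in the authors' table (its full name stands on the plots) was isolated from it and metastasizes to the lung. Both lines were grown untreated in the same medium with serum, and total RNA from 2 libraries per line (4 in all) was sequenced. Each line stands for a single established culture model, and the authors combined the libraries of a line in 1 FPKM, a level per transcript length and sequencing depth, with a lower and an upper bound. No spread between libraries was therefore available, no p-value was computed, and all differences compare the pooled libraries of these lines.

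Metallothioneins are small cysteine-rich proteins that bind zinc and copper, and also toxic metals such as cadmium. They buffer free zinc, hand it to other proteins and scavenge reactive oxygen species. MTF1 senses zinc, enters the nucleus when zinc rises and binds metal response elements in the promoters of metallothionein genes and of the zinc exporter gene SLC30A1. Glucocorticoids, oxidative stress and inflammatory signals also induce metallothioneins in many cell types, and MT2A is the isoform found most broadly in human tissues.

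The metal response element core was located in the promoters to show which members carry the sites that MTF1 is known to bind. The core was searched as TGCACNC and TGCGCNC on both strands in the 250 bases before the RefSeq start (GRCh38.p14), and 5 members had an entry. In the sequences below, written 5′ to 3′ on the gene's strand, capitals mark the matches, and a match on the opposite strand reads as its reverse complement. Shown are the promoters of MT2A (chr16:56608334-56608583, plus strand) and MT1X (chr16:56682220-56682469, plus strand), the genes with the highest FPKM in LM2, and of MT1H (chr16:56669564-56669813, plus strand), whose FPKM was close to 0.
MT2A: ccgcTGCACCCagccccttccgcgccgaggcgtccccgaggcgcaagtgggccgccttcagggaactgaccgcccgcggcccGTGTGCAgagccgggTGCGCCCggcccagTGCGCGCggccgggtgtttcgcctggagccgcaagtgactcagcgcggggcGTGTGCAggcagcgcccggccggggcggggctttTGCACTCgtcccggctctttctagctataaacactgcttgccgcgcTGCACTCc
MT1X: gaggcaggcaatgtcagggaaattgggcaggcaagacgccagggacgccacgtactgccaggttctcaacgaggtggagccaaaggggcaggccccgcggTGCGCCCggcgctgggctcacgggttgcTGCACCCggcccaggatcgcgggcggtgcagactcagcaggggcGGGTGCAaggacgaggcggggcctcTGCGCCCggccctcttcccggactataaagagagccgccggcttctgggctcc
MT1H: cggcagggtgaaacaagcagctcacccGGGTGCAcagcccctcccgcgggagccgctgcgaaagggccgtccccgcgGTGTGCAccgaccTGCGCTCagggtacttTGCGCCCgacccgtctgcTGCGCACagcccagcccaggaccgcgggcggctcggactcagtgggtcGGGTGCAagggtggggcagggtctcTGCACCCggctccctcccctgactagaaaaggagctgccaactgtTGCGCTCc
MT2A held 7 matches, MT1X 4, MT1B 3 and MT1H 8, and no match overlapped another. Of 35114 promoters of this length, 24.8% held at least 1 match, 0.37% at least 4 and 0.0171% at least 8. The promoter of MTF1 itself held none, which says only that these letters are not in this window. All 4 metallothionein promoters with an entry had a core between 47 and 54 bases before the start. MT1H carried the most cores of these members, yet it reached only 0.171 FPKM in LM2 and 0 FPKM was listed for MDA-MB-231. MT1A, MT1E, MT1F, MT1G and MT1M had no entry.

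The 9 metallothionein genes lie side by side on chromosome 16 within 75.6 kb (GRCh37, 56642496 to 56718108), in the order MT2A, MT1E, MT1M, MT1A, MT1B, MT1F, MT1G, MT1H and MT1X. MT1G is on the minus strand and the others are on the plus strand. MTF1 is on chromosome 1 (38275246 to 38325264, minus strand). Metallothionein transcripts are short, with 393 to 704 bases in the representative transcript of each gene against 7937 bases for MTF1. Their coding sequences of 183 or 186 bases had a nucleotide identity of 88.2% to 94.5% between members (median 91.3% over 36 pairs). Such short and similar genes can exchange reads, so exact shared stretches were counted. Of the windows of 50 bases along each transcript, between 0% (MT1B) and 21.3% (MT1G) also occurred in a distant gene or elsewhere in the genome, with 20.3% for MT1X, 11.1% for MT2A, 6.12% for MT1F, 5.76% for MT1A and 5.34% for MT1E. Of the windows of 100 bases, none did so for 8 genes, and for MT1H 3.36% were shared with MT1HL1. The paper gives paired-end reads longer than both window sizes, so these shares are not shares of reads. MT1X also shared 33% of its 50-base windows and 22% of its 100-base windows with an lncRNA gene (ENSG00000259827). This gene overlaps MT1X on the same strand and was listed at 0 FPKM in both lines. MT1B shared 20.9% of its 50-base and 7.48% of its 100-base windows with ENSG00000259923, which overlaps it on the same strand.

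A member was called different where its change was at least 1.5-fold on the scale log2 of the ratio of FPKM + 1, LM2 over MDA-MB-231, and the authors' bounds in the lines were apart, among genes of OK status with a mean FPKM of at least 0.5. This scale understates the change of low genes. Of the 10 members, 6 had a mean of at least 0.5 FPKM, and all 6 were above 0.5 FPKM in both lines. Of these, 2 were called higher in LM2 (MT1X and MT1F) and 0 were called lower, against 4.67% and 4.61% of the 13911 genes tested (9.27% in either direction). By the fold alone, 3 were higher (MT1X, MT1F and MT2A) and 2 were lower (MT1A and MT1E), where 10.3% and 11.8% of all genes tested passed (22.1% in either direction). All 5 metallothioneins tested were thus past 1.5-fold, in both directions, and MTF1 was not. The median change of these 5 genes was 0.66 on the log2 scale, and that of all genes tested was -0.04. Short genes in general passed the fold more often, and whether length bears on the changes of the metallothioneins was not tested. Among 405 protein-coding genes tested with representative transcripts of 300 to 800 bases, 25.2% were past 1.5-fold in either direction, compared with 21.7% of all 12082 protein-coding genes tested. With bounds apart as well, the shares were 13.3% and 9.46%.

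**Figure D1:**
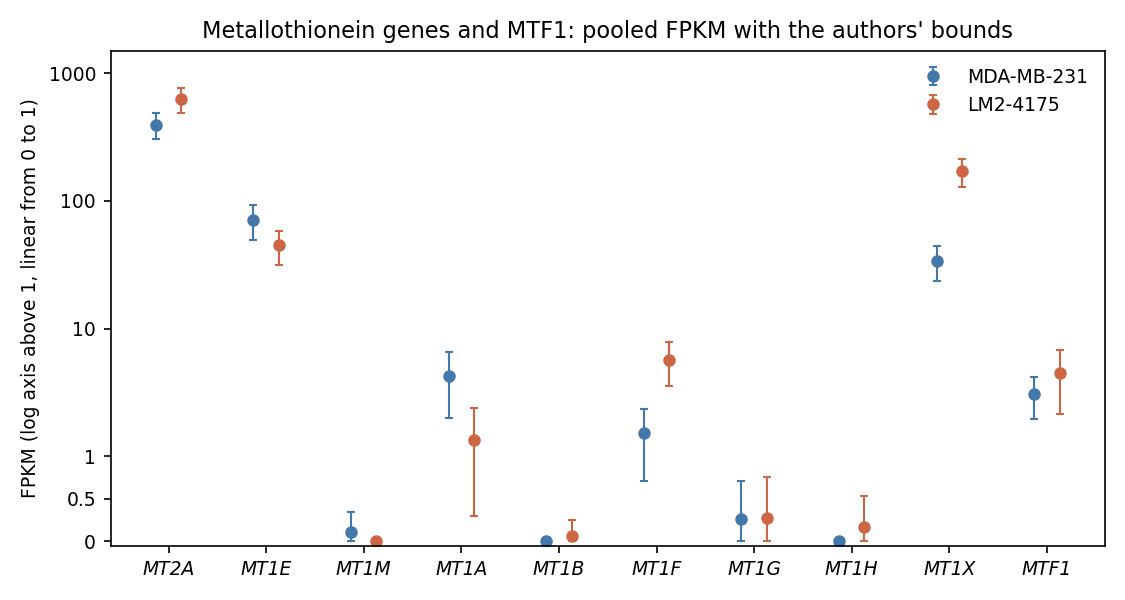
Pooled FPKM of the 10 members in MDA-MB-231 (blue) and LM2 (orange), with genes in their order along chromosome 16 and MTF1 last; bars are the authors' lower and upper bounds, and the axis is logarithmic above 1 and linear from 0 to 1. MT1X moved from 34 to 171 FPKM with bounds apart, whereas MT1E moved from 71.3 to 44.9 FPKM with overlapping bounds.

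MT1X, a broadly expressed metal-inducible isoform, was strongly up-regulated in LM2. Its level was 34 FPKM in MDA-MB-231 (23.7 to 44.3, the authors' bounds), whereas LM2 reached 171 FPKM (129 to 213). This is a ratio of 5.03, or 2.30 on the log2 scale. Even the lower bound in LM2 was 2.92 times the upper bound in MDA-MB-231. Only 104 of the 13911 genes tested (0.748%) had a log2 fold change at least as high. MT1X moved from rank 3390 to rank 490 among the 57807 genes with OK status in both lines.

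MT1F, another metal-inducible isoform, was also called higher, but at a far lower level. MDA-MB-231 cells gave 1.52 FPKM (0.71 to 2.33), and LM2 cells gave 5.66 FPKM (3.52 to 7.8). This is a ratio of 3.72, or 1.40 on the log2 scale, and the lower bound in LM2 was 1.51 times the upper bound in MDA-MB-231. As its mean is below 5 FPKM, MT1F was not tested when only genes of at least that level were kept.

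MT2A, the major isoform, had the highest FPKM of the family in both lines. Its level was 396 FPKM in MDA-MB-231 (306 to 486), whereas LM2 reached 628 FPKM (485 to 771). The difference of 1.59-fold, or 0.66 on the log2 scale, was past 1.5-fold. Its bounds overlapped by 0.962 FPKM and MT2A was not called. When LM2 was scaled to the same FPKM sum or the same upper quartile as MDA-MB-231, the bounds were apart and MT2A was called higher, with log2 fold changes of 0.74 and 0.77. In absolute terms MT2A differed most of all members, by 232 FPKM, compared with 137 FPKM for MT1X.

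MT1E and MT1A had lower values in LM2, and neither was called. MT1E, whose expression has been linked to oestrogen receptor-negative breast cancer cells, had 71.3 FPKM in MDA-MB-231 (49.6 to 93) and 44.9 FPKM in LM2 (31.2 to 58.5). Its log2 fold change was -0.66, and the bounds overlapped by 8.92 FPKM. MT1A, an isoform with low expression in most cells unless metal is added, had 4.26 FPKM in MDA-MB-231 (2.01 to 6.51) and 1.35 FPKM in LM2 (0.299 to 2.41). The log2 fold change was -1.16, and 2.8% of the genes tested had one as low or lower. The bounds overlapped by 0.401 FPKM and were wide, with the upper bound 77.9% above the FPKM in LM2.

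MTF1 showed no change past the fold. Its level was 3.06 FPKM in MDA-MB-231 (1.95 to 4.17), whereas LM2 had 4.47 FPKM (2.12 to 6.82), which is 0.43 on the log2 scale. The bounds of the lines overlapped by 2.05 FPKM, and they allow ratios from 0.509 to 3.49. Neither a lower nor a several-fold higher MTF1 level could therefore be told from an equal one.

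**Figure D2:**
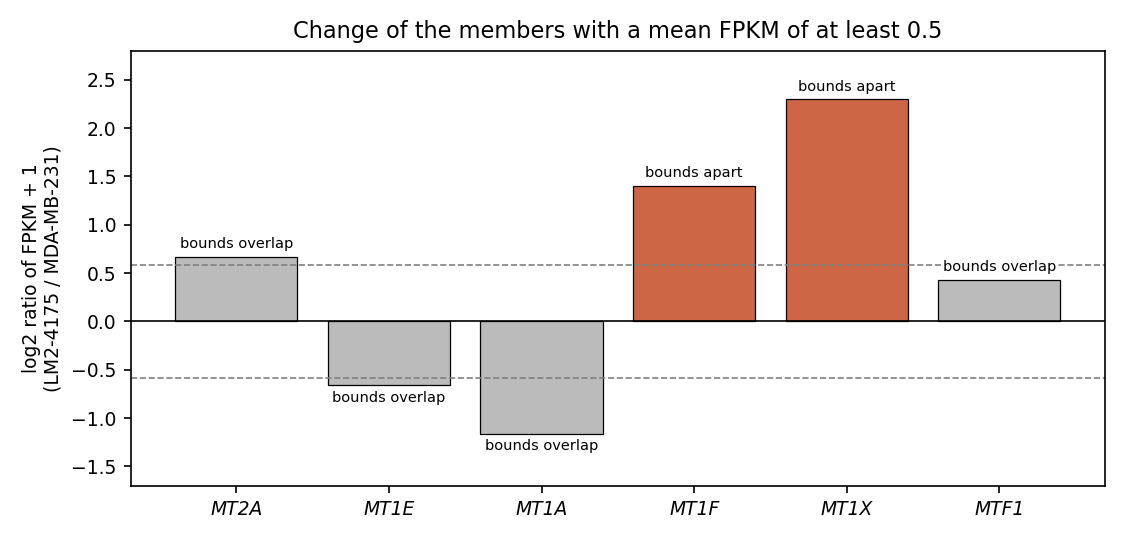
Log2 ratio of FPKM + 1 (LM2 over MDA-MB-231) of the 6 members with a mean of at least 0.5 FPKM; dashed lines mark 1.5-fold, orange bars are genes called higher, grey bars are not called, and the words above or below each bar say whether the authors' bounds overlap. MT1X (2.30) and MT1F (1.40) were called, while MT2A (0.66), MT1E (-0.66) and MT1A (-1.16) passed the fold with overlapping bounds.

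The 4 remaining members were barely detected. MT1G had nearly equal values, 0.265 FPKM (0 to 0.708) in MDA-MB-231 against 0.275 FPKM (0 to 0.756) in LM2. MT1B and MT1H were listed at 0 in MDA-MB-231, whereas LM2 had 0.0626 FPKM (0 to 0.256) of MT1B and 0.171 FPKM (0 to 0.528) of MT1H. MT1M had 0.114 FPKM (0 to 0.341) in MDA-MB-231 but was listed at 0 in LM2. A listed 0 was not read as absence, because HSPA1A, HSPA1B and SLC39A7, genes active in most cells, were also listed at 0 in both lines. The lower bounds of these 4 members were 0 in both lines, so no direction was given for them.

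The order of the isoforms within a line differed between the lines. In MDA-MB-231 the order was MT2A, MT1E, MT1X, MT1A, MT1F, and each of the first 3 stood apart from the next metallothionein by its bounds. In LM2 the order was MT2A, MT1X, MT1E, MT1F, MT1A, and the first 3 again stood apart from the next. MT1X and MT1E, both abundant, thus changed places, with MT1X at 0.477 times the level of MT1E in MDA-MB-231 and 3.81 times in LM2. These ratios within a line do not depend on how the lines were scaled to each other. MT1F went from 0.358 to 4.19 times the level of MT1A. In MDA-MB-231, however, the bounds of MT1A (2.01 to 6.51) and MT1F (0.71 to 2.33) overlapped, so their order there is not settled. MTF1 lay between MT1A and MT1F in both lines, and its bounds overlapped those of both. Below them, the neighbours in order had overlapping bounds, except MT1F and MT1G in MDA-MB-231.

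The summed FPKM of the 9 metallothioneins, which is less affected by reads exchanged between members, was 1.68 times higher in LM2, at 851 against 507 in MDA-MB-231. The summed bounds were apart, at 649 to 1054 and 382 to 633. In MDA-MB-231, MT2A made up 78% of the sum, against 73.8% for LM2. In the same order, MT1X made up 6.7% and 20.1%, and MT1E 14% and 5.27%. Without MT2A the sum was 111 FPKM (76 to 147) and 223 FPKM (164 to 283). Without MT2A and MT1X the order of the lines was the opposite, at 52.4 FPKM (35 to 70.2) in LM2 against 77.4 FPKM (52.3 to 103), and the summed bounds overlapped.

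**Figure D3:**
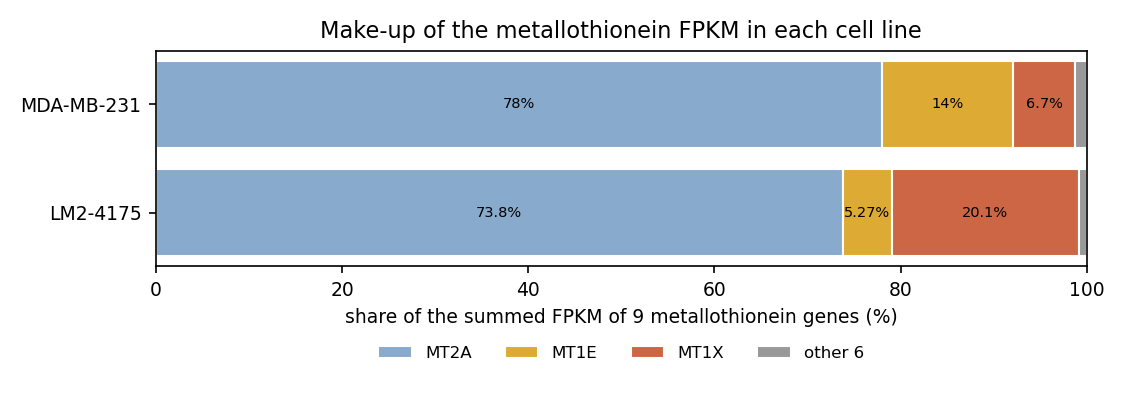
Share of each isoform in the summed FPKM of 9 metallothionein genes, by cell line; grey is the sum of the other 6 genes. The share of MT1X was 20.1% in LM2 against 6.7% in MDA-MB-231, and that of MT1E 5.27% against 14%.

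Along the cluster, the called genes MT1F and MT1X lie 49.1 and 73.9 kb from the start of MT2A, and both were higher in LM2. MT2A (0.66 on the log2 scale) and MT1E and MT1A at 16.9 and 30.1 kb (-0.66 and -1.16) were not called, as their bounds overlapped. Of 21 other genes tested within 1 Mb of the cluster, 2 were called higher and 1 lower, where 4.67% and 4.61% of all genes tested were called, and their median log2 fold change was -0.12. These were the adhesion receptor gene GPR56, with 18.6 FPKM in MDA-MB-231 and 43.9 FPKM in LM2, the chemokine gene CX3CL1, with 5.31 and 0.33 FPKM, and the lncRNA RP11-249C24.10. The latter starts 0.9 kb after the start of MT2A, and its FPKM was 0.0916 (0 to 0.237) in MDA-MB-231 against 1.37 (0.663 to 2.07) in LM2. Both CX3CL1 and this lncRNA reached a mean of 0.5 FPKM only through the line in which they were higher, so their calls add no support. DOK4 had a log2 fold change of -1.09 and was not called. The closest protein-coding genes tested on either side were BBS2 (-0.22) and NUP93 (-0.12), and neither was past 1.5-fold, although the bounds of BBS2 were wide (0 to 39.5 FPKM in MDA-MB-231).

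**Figure D4:**
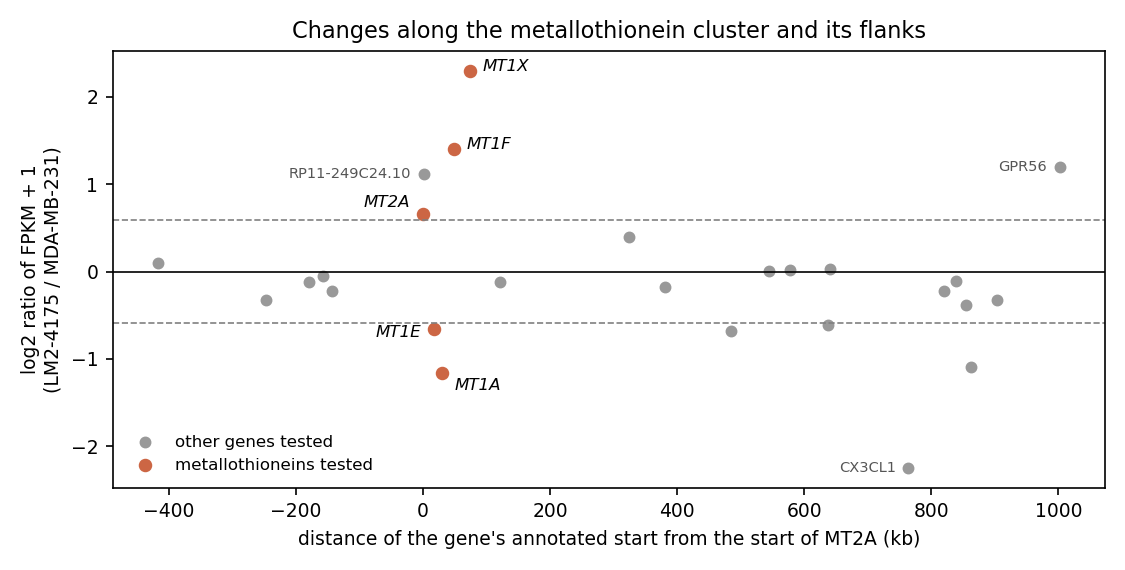
Log2 ratio of FPKM + 1 (LM2 over MDA-MB-231) against the distance of each gene's annotated start from the start of MT2A in kb, for the 5 metallothioneins tested (orange) and 21 other genes tested within 1 Mb of the cluster (grey); dashed lines mark 1.5-fold, and the names of other genes are given where they were called. All 5 metallothioneins lie beyond the dashed lines, 3 above and 2 below. Of the 21 other genes, 2 lie above and 4 below these lines, and their median is -0.12. By the fold alone, 10.3% of all genes tested were higher and 11.8% lower.

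Other metallothionein genes and copies added little. Of 11 further genes (MT3, MT4, MT1L and pseudogenes), 8 were listed at 0 in both lines. MT3, the brain isoform, had 0.169 FPKM in MDA-MB-231 and was listed at 0 in LM2. MT1XP1, a processed pseudogene on chromosome 1, reached 2.13 FPKM (1.72 to 2.54) in MDA-MB-231 but was listed at 0 in LM2. It was the only one of these genes tested, and its call rests on the listed 0. MT1X shares exact 50-base windows with this pseudogene, as do MT1G and MT2A.

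No zinc transporter gene was called higher, where 4.67% of all genes tested were called higher and 9.27% were called in either direction. SLC30A1, the zinc exporter of the plasma membrane and a target of MTF1, fell in LM2, with 5.22 FPKM (3.93 to 6.52) against 9.63 FPKM (7.33 to 11.9) in MDA-MB-231, or -0.77 on the log2 scale. It was the 1 gene called among 7 zinc exporter genes tested (median -0.21). None of 10 zinc importer genes tested was called (median -0.04), and SLC39A4, which takes up dietary zinc, was past the fold with 29.3 and 19.2 FPKM and overlapping bounds. The highest importer gene, SLC39A1, had 110 FPKM (81.4 to 138) and 105 FPKM (77.3 to 132). Among 14 copper handling genes (median -0.12), SOD1, which encodes copper-zinc superoxide dismutase, was the 1 gene called, with 227 FPKM (175 to 279) and 128 FPKM (98.3 to 157). With 9.27% of all genes tested called, these single calls say little about zinc or copper handling as a whole.

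Of 9 iron handling genes tested, 3 were called lower and 0 higher (median -0.35), where 4.61% and 4.67% of all genes tested were called. FTL, the ferritin light chain, fell by 0.84 on the log2 scale, the iron exporter gene SLC40A1 from 4.27 to 1.47 FPKM and the ferric reductase gene CYBRD1 from 65.5 to 31.2 FPKM. FTH1, the ferritin heavy chain, had a log2 fold change of 0.02. Of 8 genes outside the family that were listed as metal-responsive, of which SLC30A1, SLC39A10, SLC40A1 and HMOX1 also stand in other lists, 1 was called higher and 2 lower. The 2 called lower were SLC30A1 and SLC40A1, the same calls as in the zinc exporter and iron lists. The gene called higher was PGF, the placental growth factor, with 4.97 FPKM (3.47 to 6.47) and 17.2 FPKM (12.8 to 21.5). HMOX1, a heme oxygenase gene induced by metals and oxidative stress, had 8.74 and 8.64 FPKM.

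Heat shock and glucocorticoid genes share inducers with metallothioneins. Of 10 heat shock genes tested, 1 was called, HSPB1, with 159 FPKM in MDA-MB-231 and 81.1 FPKM in LM2 (median of the list -0.38). Of 9 genes for the glucocorticoid receptor and its targets, 2 were called higher (DUSP1 and KLF9) and 3 lower (GLUL, SGK1 and FKBP5), with a median of -0.06, where 9.27% of all genes tested were called in either direction. DUSP1, a MAP kinase phosphatase gene, went from 22.3 to 42.3 FPKM, and GLUL, the glutamine synthetase gene, from 95.5 to 14.9 FPKM. NR3C1, the receptor gene, had 37.2 FPKM (27.7 to 46.6) and 24.5 FPKM (18.4 to 30.6) and was not called.

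**Figure D5:**
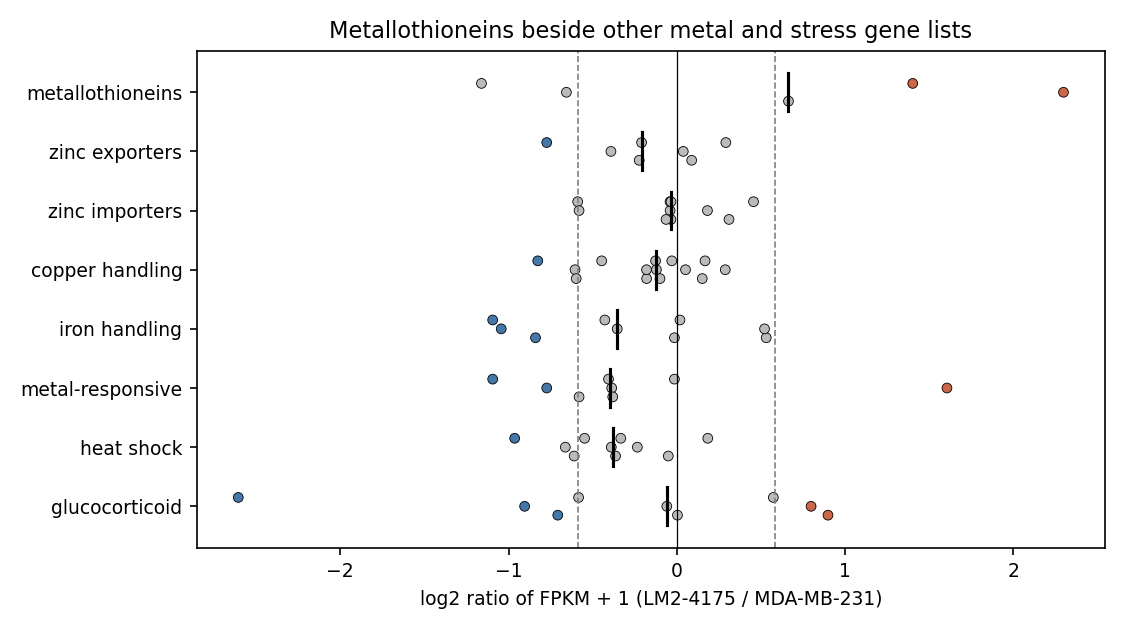
Log2 ratio of FPKM + 1 (LM2 over MDA-MB-231) of the genes tested among the metallothioneins and in the zinc, copper, iron, metal-responsive, heat shock and glucocorticoid lists; each point is a gene (orange called higher, blue called lower, grey not called), black lines are list medians and dashed lines mark 1.5-fold. The metallothioneins spread from -1.16 to 2.30 around a median of 0.66, and the medians of the other lists plotted lie between -0.40 and -0.04.

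For the identity of the lines, the receptor genes ESR1 and PGR were at or below 0.0331 FPKM in both lines, and the mesenchymal marker gene VIM had 1355 and 1768 FPKM and was not called. Other markers differed between the lines. Of the 6 mesenchymal marker genes, 3 had higher and 3 had lower values in LM2 (median log2 fold change 0.03). SPARC, a matrix protein gene, was the 1 called among them, higher in LM2 at 232 FPKM against 13.6 FPKM. All 4 luminal and receptor genes tested had lower values in LM2 (median -0.95). Of these, the keratin genes KRT8 (626 and 180.2 FPKM in MDA-MB-231 and LM2) and KRT18 (448 and 181 FPKM) were called lower. Of 4 epithelial adhesion genes tested, 3 had lower values and 1 a higher one (median -0.8). CDH1 (0.8505 and 0.3655 FPKM) reached a mean of 0.5 FPKM only through MDA-MB-231. Its lower value therefore adds no support, and the median rests in part on it. EPCAM (12.3 and 4.93 FPKM) and CLDN4 (69.2 and 2.63 FPKM) were called lower. Of all genes tested, 4.67% were called higher and 4.61% lower. Of the blood cell markers, CD14 alone had a mean of at least 0.5 FPKM, with 1.17 and 1.75 FPKM, while PTPRC had 0.0767 and 0.0263 FPKM and CD3E was listed at 0 in both lines. The genes nearest to MT2A in log2(FPKM + 1) over the 2 lines were C17orf76-AS1, EEF2 and VIM-AS1, at distances of 0.11, 0.23 and 0.27, where 2 values per gene allow no more than a likeness in level.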

How the data were processed

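MDA-MB-231 and LM2 cells were profiled by RNA-Seq (2 libraries per line, grouped by their titles). Paired-end reads from TruSeq libraries were mapped by the authors to hg19 with TopHat 2.0, and GENCODE 19 genes were quantified with Cufflinks (Cuffdiff per the processing notes). The authors deposited FPKM with lower and upper bounds and a status, 1 value per gene and cell line, so read depth per library, strand use and library normalization are not known from the table. The bounds lie evenly around the FPKM unless the lower one is 0, and it is not stated whether they cover the spread between libraries.

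The members and lists were chosen with earlier results of these data known. Genes of OK status in both lines and a mean of at least 0.5 FPKM were compared with a pseudocount of 1. All members are named. From each list, the genes called (at most 5), or the highest ones, are named, and near the cluster the 4 largest changes. HSPA1A, HSPA1B, SLC39A7, FTH1, HMOX1, NR3C1, SLC39A4, BBS2, NUP93, MT3, SLC39A10, VIM, ESR1, PGR, ERBB2, CDH1, PTPRC and CD3E were named after their values were seen. Gene lists were written from general knowledge. Positions, lengths and overlaps were taken from GENCODE 44 on GRCh37, with 55535 gene IDs matched, all members included. Representative transcripts were the APPRIS principal or, failing a single one, the Ensembl canonical transcript. Promoters were RefSeq sequences (GRCh38.p14), searched with the letters given. Python 3.11.15, NumPy 2.4.6, pandas 2.3.3, Biopython 1.88 and Matplotlib 3.10.9 were used, and the calls were tested on simulated data. The simulated noise and bounds were both drawn from the width of the authors' bounds. That test checks the working of the rule only and says nothing about the spread between libraries. Proteins were not analysed here. Alternatives covered pseudocounts, filters, thresholds and scaling.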

Additional observations from a re-analysis of the deposited data

How the results depend on the processing

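Of the 9 alternatives for the members, MT1X was called higher under all, and MT1F under all except the filter at a mean of at least 5 FPKM, which left 1 member called higher in place of 2 because MT1F was not tested. By the fold alone, 2 members were called lower (MT1A and MT1E) in place of 0. MT2A was called higher by the fold alone and under both scalings, which shifted the median of all genes tested by 0.07 and 0.09 on the log2 scale. None of the 6 members tested changed direction under an alternative. The log2 ratio of the summed FPKM, 0.74 to 1.00 over 4 alternatives that added other metallothionein rows, left out MT2A or rescaled the lines, stayed past 1.5-fold with bounds apart. None of these alternatives left out MT1X, so they do not show that the sum is higher without it. With both MT2A and MT1X left out, the log2 ratio was -0.555 and the summed bounds overlapped. No paired analysis was possible because the table holds 1 value per cell line, and for the same reason no library could be left out. The number of reads behind each FPKM is not known, so low members such as MT1B, MT1G, MT1H and MT1M could not be compared.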
